A study of Mus musculus with 12 samples.

Results

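Expression of 10 genes that act on DNA methylation or histone marks was followed in bone marrow cells sorted as hematopoietic stem cells (HSCs) from mice. The genes were Dnmt1, Dnmt3a, Dnmt3b, Tet1, Tet2, Tet3, Ezh2, Bmi1, Asxl1 and Kmt2a, taken by name, and all 10 had a row among the 31272 gene names of the tables. RNA-seq was performed on 12 libraries in 4 groups of 3. The control group (Ctrl) was taken as not irradiated from its treatment label, although the protocol text of all 12 libraries, Ctrl included, speaks of a time after irradiation. The IR group received ionizing radiation, and the other two irradiated groups carry the labels Ab_IR and L_IR. All mice were wild type, and that text gives the sort of bone marrow cells as 3 days after irradiation. The labels do not spell out Ab or L and give no age, sex or number of mice per library, so p-values measure the spread between the libraries of a group, which may be technical.

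DNA methylation is laid down on unmethylated CpG sites by DNMT3A and DNMT3B and copied onto the daughter strand after replication by DNMT1, and TET1, TET2 and TET3 oxidize 5-methylcytosine as a step towards its removal. EZH2 is the catalytic subunit of Polycomb repressive complex PRC2, which methylates histone H3 at lysine K27, and BMI1 is a subunit of PRC1, which ubiquitinates histone H2A. ASXL1 is the cofactor of the deubiquitinase BAP1 that removes this H2A mark, and KMT2A (MLL1) methylates H3 at lysine K4 and keeps Hox genes active. In the blood system DNMT3A, TET2 and ASXL1 are the genes most often mutated in clonal hematopoiesis, BMI1 is needed for HSC self-renewal, and KMT2A is the target of leukemic translocations.

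Values were FPKM, that is, fragments per kilobase of transcript scaled to the size of the library, which can be compared between genes because they are set per length. No read counts come with them, and how deeply each library was sequenced is unknown. Between 11467 and 12167 gene rows per library reached 1 FPKM. One library differed from its group, Ctrl replicate 1, where 44.1% of rows were listed at 0, whereas this share was 24.7% to 27.3% elsewhere. Nppa, an atrial peptide gene that blood cells are not known for, read 51.2 to 63.9 FPKM in all IR libraries and the Ctrl replicates 2 and 3, but 0 to 0.26 FPKM in the other 7, so that this split lies between IR and both Ab_IR and L_IR. The HSC label was checked against 13 markers, of which 6 were under 1 FPKM in all libraries (Ctnnal1, Slamf1, Tek, Mecom, Fgd5 and Hoxb5). Cd34 and Flt3, whose proteins the sort of the study's methods excludes, were at means of 20.0 and 10.5 FPKM in Ctrl. Markers of other blood cells were abundant, such as the immunoglobulin gene Igkc at 9409 to 24973 FPKM and the myeloid gene Mpo at 2859 to 3432 FPKM. In such bulk samples, fewer cells of a type and less RNA per cell cannot be told apart.

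Dnmt1 was the most abundant of the 10 genes, with a mean of 77.5 FPKM over the 12 libraries, followed by Ezh2 at 23.1, Asxl1 at 17.1 and Bmi1 at 14.1 FPKM. Dnmt1 was above Ezh2 in 12 of 12 libraries, whereas Ezh2 was above Asxl1 in 9 of 12 and Asxl1 above Bmi1 in 11 of 12. Tet3 at 6.04, Kmt2a at 5.95 and Dnmt3b at 5.44 FPKM did not keep an order, since Tet3 exceeded Kmt2a in 5 of 12 libraries and Kmt2a exceeded Dnmt3b in 7 of 12. Dnmt3a followed at 3.82 FPKM and Tet2 at 3.04 FPKM. Tet1 was lowest, at 0.53 to 0.90 FPKM, and stayed under the 1 FPKM that a gene needed in at least 3 libraries of a comparison to be tested. Its mean level was 0.80 ± 0.095 FPKM for Ctrl, 0.57 ± 0.036 for IR, 0.557 ± 0.021 for Ab_IR and 0.703 ± 0.068 for L_IR (SD, n = 3 each), with all Ctrl libraries above all IR and Ab_IR libraries. The other 9 genes were tested.

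**Figure D1:**
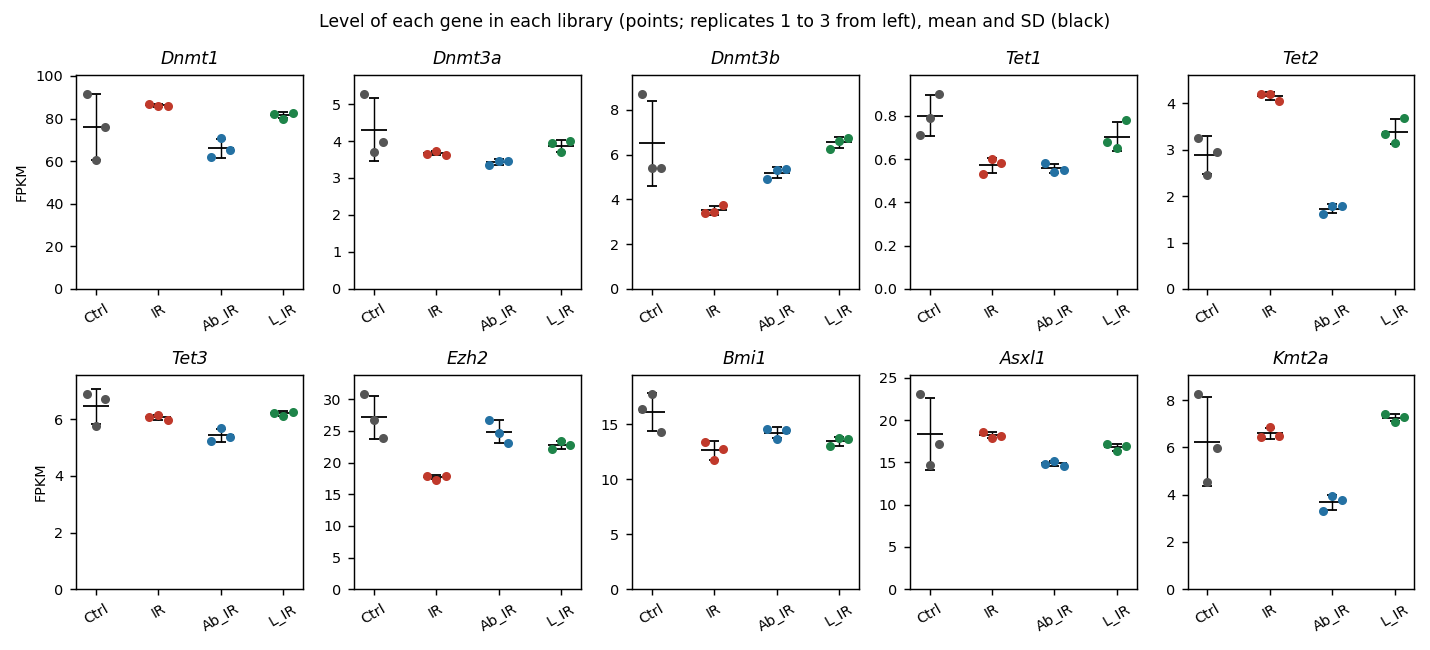
FPKM of each gene (vertical axes, from 0) in the 3 libraries of each group, with replicates 1 to 3 from left to right and the mean and SD in black. Dnmt3b and Ezh2 are lowest in the IR libraries, Tet2 and Kmt2a are lowest in the Ab_IR libraries, and the Ctrl libraries spread widest for Dnmt1, Dnmt3b, Asxl1 and Kmt2a.

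Promoter windows of 300 bases, from 250 before to 50 after a gene's start, were taken from RefSeq (GRCm38.p6) and are shown for the 4 genes on which the results turn. Ezh2 and Dnmt3b were lowest in IR, and Tet2 and Kmt2a were lowest in Ab_IR. Capitals mark CpG dinucleotides, the sites that the DNMT and TET enzymes act on. The Ezh2 window lies at chr6:47594981-47595280 on the minus strand, that of Dnmt3b at chr2:153649199-153649498 on the plus strand, that of Tet2 at chr3:133544341-133544640 on the minus strand and that of Kmt2a at chr9:44881240-44881539 on the minus strand.
Ezh2: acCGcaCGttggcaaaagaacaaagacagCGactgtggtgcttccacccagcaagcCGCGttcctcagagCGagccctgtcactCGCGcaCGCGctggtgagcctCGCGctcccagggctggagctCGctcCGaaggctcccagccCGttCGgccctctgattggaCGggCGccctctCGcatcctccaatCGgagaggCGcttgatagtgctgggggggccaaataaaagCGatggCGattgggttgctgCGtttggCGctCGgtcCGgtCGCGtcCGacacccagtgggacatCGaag
Dnmt3b: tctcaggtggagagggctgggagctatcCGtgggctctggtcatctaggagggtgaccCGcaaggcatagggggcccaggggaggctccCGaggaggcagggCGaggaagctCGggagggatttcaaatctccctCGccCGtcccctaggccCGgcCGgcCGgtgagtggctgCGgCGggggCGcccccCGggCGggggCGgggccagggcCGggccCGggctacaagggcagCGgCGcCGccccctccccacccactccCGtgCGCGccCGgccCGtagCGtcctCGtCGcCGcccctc
Tet2: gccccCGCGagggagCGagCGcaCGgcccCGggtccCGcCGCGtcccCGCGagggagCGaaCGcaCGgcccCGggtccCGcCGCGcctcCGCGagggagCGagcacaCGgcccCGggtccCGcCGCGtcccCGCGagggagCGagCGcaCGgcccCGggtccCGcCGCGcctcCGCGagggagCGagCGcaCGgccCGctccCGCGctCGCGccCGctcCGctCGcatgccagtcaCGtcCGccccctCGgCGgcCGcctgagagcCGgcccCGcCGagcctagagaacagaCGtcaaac
Kmt2a: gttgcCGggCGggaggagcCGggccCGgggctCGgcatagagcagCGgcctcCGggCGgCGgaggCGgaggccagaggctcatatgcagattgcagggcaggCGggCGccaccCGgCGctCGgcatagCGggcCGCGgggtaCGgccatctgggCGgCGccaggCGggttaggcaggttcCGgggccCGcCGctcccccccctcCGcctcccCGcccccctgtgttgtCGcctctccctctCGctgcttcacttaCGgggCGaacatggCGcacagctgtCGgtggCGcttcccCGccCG

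These windows held 31 CpGs (Ezh2), 30 (Dnmt3b), 57 (Tet2) and 36 (Kmt2a), against a median of 7 over the 32851 mouse promoter windows of the table. As many CpGs as in Tet2 occurred in 0.152% of all windows, and as many as in Ezh2, Dnmt3b and Kmt2a in 10.6%, 11.7% and 6.23%. Searched on both strands, the GC box GGGCGG was found in the Dnmt3b, Tet2 and Kmt2a windows but not in that of Ezh2, and in 35.7% of all windows. The Ezh2 window held the E2F-type motif TTTGGCGC, present in 0.514% of all windows, which was not found in the other windows printed here. Among the members not printed, Dnmt1 also had this motif, in its window at chr9:20952574-20952873. The motifs were searched separately, so that matches may overlap. A match describes these letters only, and DNA methylation at these sites was not measured.

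Dnmt1 (chr9:20907209-20959888) was at 91.5, 60.6 and 76.0 FPKM in Ctrl replicates 1 to 3, at 87.0, 86.0 and 85.8 in IR, at 62.1, 70.8 and 65.4 in Ab_IR and at 82.2, 80.0 and 82.4 in L_IR. The Ab_IR libraries lay below all IR and L_IR libraries, while Ctrl spanned the range of the other groups. Dnmt1 was lower in Ab_IR than in IR at -0.38 ± 0.050 on the log2 scale (fold change of FPKM + 1 with its SE, adjusted p = 0.000361) and than in L_IR by -0.30 ± 0.051 (adjusted p = 0.00412). The difference between L_IR and IR was small, at -0.08 ± 0.022 (adjusted p = 0.0155), and missed the threshold with quantile normalization (adjusted p = 0.102). It also missed it in limma without trend and with all 12 libraries in one fit, and passed in 14 of 17 alternatives. In IR against Ctrl it was 0.20 ± 0.14 (adjusted p = 0.306), and without Ctrl replicate 1 it passed at 0.34 (adjusted p = 0.0189). Dnmt1 was, with the Nppa split as a term, at -0.81 in Ab_IR against IR (adjusted p = 0.000386) and -0.51 in L_IR against IR (adjusted p = 0.00773).

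Dnmt3b (chr2:153649450-153687730), a de novo methyltransferase, was at 8.70, 5.40 and 5.41 FPKM in Ctrl, at 3.38, 3.42 and 3.75 in IR, at 4.91, 5.30 and 5.36 in Ab_IR and at 6.25, 6.61 and 6.75 in L_IR. All IR libraries lay below the other 9, and all L_IR libraries above all Ab_IR libraries. The gene fell in IR against Ctrl by 0.70 ± 0.17 on the log2 scale (adjusted p = 0.0174). It was higher than in IR in Ab_IR, by 0.45 ± 0.055 (adjusted p = 0.000239), and in L_IR, by 0.74 ± 0.049 (adjusted p = 1.74e-05), and lower in Ab_IR than in L_IR, with -0.28 ± 0.050 (adjusted p = 0.00463). Without Ctrl replicate 1 the difference between IR and Ctrl was -0.50 (adjusted p = 0.000994), and without IR replicate 1 or 2 it missed the threshold (adjusted p = 0.0621 and 0.0623). When the Nppa split was added as a term, an estimate that leans on Ctrl replicate 1 as the only Ctrl library without Nppa, the difference turned to -0.14 in Ab_IR against IR (adjusted p = 0.184) and was 0.14 in L_IR against IR (adjusted p = 0.205), so that group and split cannot be told apart here.

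Dnmt3a (chr12:3806007-3914443), the other de novo methyltransferase, was at 5.27, 3.69 and 3.97 FPKM in Ctrl, at 3.66, 3.72 and 3.61 in IR, at 3.34, 3.47 and 3.47 in Ab_IR and at 3.95, 3.69 and 3.99 in L_IR. Apart from Ctrl replicate 1, all libraries lay within 3.34 to 3.99 FPKM, and the Ab_IR libraries were the lowest. Dnmt3a passed in none of the 6 comparisons, with log2 fold changes of -0.18 in IR against Ctrl, -0.08 in Ab_IR against IR, 0.06 in L_IR against IR and -0.14 in Ab_IR against L_IR. The 95% interval was -0.18 to 0.03 in Ab_IR against IR and -0.04 to 0.17 in L_IR against IR. With quantile normalization Dnmt3a passed as lower in Ab_IR than in IR at -0.22 (adjusted p = 0.0031), and so it did with the Nppa split as a term, at -0.45 (adjusted p = 0.000704), which also gave -0.31 in L_IR against IR (adjusted p = 0.00747).

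Tet2 (chr3:133463679-133545139), a 5-methylcytosine dioxygenase, had the largest difference of the 9 genes tested in Ab_IR against IR in each fit that tested it, except with the Nppa split as a term, where Kmt2a at -1.27 exceeded it. It was at 3.25, 2.45 and 2.95 FPKM in Ctrl, at 4.20, 4.20 and 4.05 in IR, at 1.62, 1.79 and 1.78 in Ab_IR and at 3.33, 3.15 and 3.68 in L_IR. All IR libraries were above the other 9, and all Ab_IR libraries were below them. Tet2 rose in IR against Ctrl by 0.41 ± 0.095 (adjusted p = 0.0141), a call that was lost when any IR library was left out (adjusted p = 0.0603, 0.0609 and 0.0524 without replicates 1, 2 and 3). It was lower in Ab_IR than in IR by 0.92 ± 0.051 on the log2 scale (adjusted p = 5.05e-06), a ratio of 0.417 in FPKM. In L_IR it was also lower than in IR, at -0.23 ± 0.055 (adjusted p = 0.00771), and Ab_IR was below L_IR by -0.68 ± 0.064 (adjusted p = 0.000365). With the Nppa split as a term Ab_IR differed from IR by -1.12 (adjusted p = 1.88e-05) and L_IR from IR by -0.44 (adjusted p = 0.00928). Against Ctrl, Tet2 in Ab_IR did not pass at -0.50 ± 0.10 (adjusted p = 0.0767), although the groups did not overlap, and passed without Ctrl replicate 1 at -0.44 (adjusted p = 0.0424).

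Tet3 (chr6:83362373-83459084), the most abundant TET gene, was at 6.88, 5.75 and 6.73 FPKM in Ctrl, at 6.09, 6.15 and 5.97 in IR, at 5.24, 5.69 and 5.38 in Ab_IR and at 6.23, 6.12 and 6.27 in L_IR. The Ab_IR libraries lay below all others by a narrow gap. Tet3 was lower in Ab_IR than in IR, with -0.14 ± 0.045 (adjusted p = 0.0288), and than in L_IR, with -0.16 ± 0.044 (adjusted p = 0.0246). The first call was lost without any one IR library or without Ab_IR replicate 1 or 3 (adjusted p = 0.0574 to 0.0872), and the second without any one L_IR library or without Ab_IR replicate 1 or 3 (adjusted p = 0.059 to 0.0818). Taking out the trend against gene length turned both to 0.16 (adjusted p = 0.0133) and 0.08 (adjusted p = 0.218). In IR against Ctrl, Tet3 was at -0.07 and in L_IR against IR at 0.03, neither past the test.

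Ezh2 (chr6:47530139-47595341), the H3K27 methyltransferase, was at 30.8, 26.7 and 23.9 FPKM in Ctrl, at 17.9, 17.3 and 17.9 in IR, at 26.7, 24.7 and 23.1 in Ab_IR and at 22.2, 23.3 and 22.8 in L_IR. The IR libraries were below all others. Ezh2 fell in IR against Ctrl by 0.58 ± 0.096 on the log2 scale (adjusted p = 0.00395), a call kept when any 1 library was left out. It was higher than in IR in Ab_IR, by 0.47 ± 0.055 (adjusted p = 0.000217), and in L_IR, by 0.35 ± 0.030 (adjusted p = 6.49e-05). Ab_IR and L_IR differed by 0.12 with a 95% interval of -0.01 to 0.25 (adjusted p = 0.138), which passed without Ab_IR replicate 3 at 0.17 (adjusted p = 0.0422) and was -0.02 with immunoglobulin genes left out (adjusted p = 0.828). With the Nppa split as a term Ab_IR differed from IR by 0.19 (adjusted p = 0.122) and L_IR from IR by 0.07 (adjusted p = 0.561).

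Bmi1 (chr2:18677018-18686629), the PRC1 subunit, was at 16.4, 17.7 and 14.3 FPKM in Ctrl, at 13.4, 11.7 and 12.8 in IR, at 14.6, 13.7 and 14.5 in Ab_IR and at 13.0, 13.7 and 13.6 in L_IR. IR lay below Ctrl and Ab_IR without overlap and overlapped with L_IR. Bmi1 fell in IR against Ctrl by 0.33 ± 0.095 (adjusted p = 0.0326) and was higher in Ab_IR than in IR by 0.16 ± 0.055 (adjusted p = 0.0317). Leaving out immunoglobulin genes ended both calls, at -0.25 (adjusted p = 0.107) and 0.02 (adjusted p = 0.764). The first call was also lost without Ctrl replicate 2 or any one IR library (adjusted p = 0.0659 to 0.123), and the second without IR replicate 2 or 3 or Ab_IR replicate 1 or 3 (adjusted p = 0.0636 to 0.101). Both were lost with no filter, and the first with the replicate block. Quantile normalization, the length trend taken out, the Nppa term and one fit of all 12 libraries each ended the second. The first passed in 10 of 17 alternatives and the second in 7 of 17.

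Asxl1 (chr2:153345829-153404007) was at 23.1, 14.7 and 17.2 FPKM in Ctrl, at 18.6, 17.9 and 18.1 in IR, at 14.8, 15.2 and 14.6 in Ab_IR and at 17.2, 16.4 and 16.9 in L_IR. Among the irradiated groups IR was highest and Ab_IR lowest, with no overlap. Asxl1 was lower than in IR in Ab_IR, by -0.27 ± 0.036 (adjusted p = 0.00037), and in L_IR, by -0.11 ± 0.030 (adjusted p = 0.0166), and lower in Ab_IR than in L_IR by -0.17 ± 0.038 (adjusted p = 0.0129). The call in L_IR against IR was lost without IR replicate 1 (adjusted p = 0.057) or L_IR replicate 2 (adjusted p = 0.0515), and that between Ab_IR and L_IR without L_IR replicate 1 (adjusted p = 0.054) or 3 (adjusted p = 0.0512). With the Nppa split as a term the differences of Ab_IR and L_IR from IR were -0.78 (adjusted p = 4.37e-05) and -0.61 (adjusted p = 0.000296). Transcripts on the opposite strand overlap exons of Asxl1 (2500004C02Rik, 0.41 to 1.15 FPKM), Dnmt3a (Dnmt3aos, 0 to 0.46 FPKM), Tet2 (Gm42567, 0 to 0.25 FPKM), Ezh2 (Gm26625) and Kmt2a (AC061963.1), the last 2 without a row among the gene names used here, and the strand setting of the quantification is not given in the sources used here.

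Kmt2a (chr9:44803355-44881296), the H3K4 methyltransferase, was at 8.25, 4.52 and 5.99 FPKM in Ctrl, at 6.45, 6.86 and 6.49 in IR, at 3.33, 3.94 and 3.79 in Ab_IR and at 7.40, 7.09 and 7.29 in L_IR. The Ab_IR libraries were below the other 9 and the L_IR libraries above all IR libraries. Kmt2a was lower in Ab_IR than in IR by 0.70 ± 0.061 on the log2 scale (adjusted p = 4.58e-05), a ratio of 0.559 in FPKM, and than in L_IR by 0.82 ± 0.059 (adjusted p = 0.000119), a ratio of 0.508. The higher level in L_IR than in IR, 0.12 ± 0.038 (adjusted p = 0.0265), was lost without IR replicate 1 or 3 or L_IR replicate 1 or 3 (adjusted p = 0.0681 to 0.0815), fell to 0.02 with quantile normalization (adjusted p = 0.587) and turned to -0.45 with the Nppa split as a term (adjusted p = 0.0221). In Ab_IR against IR the same term gave -1.27 (adjusted p = 3.52e-05). In IR against Ctrl, Kmt2a was at 0.10 ± 0.18 (adjusted p = 0.690).

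**Figure D2:**
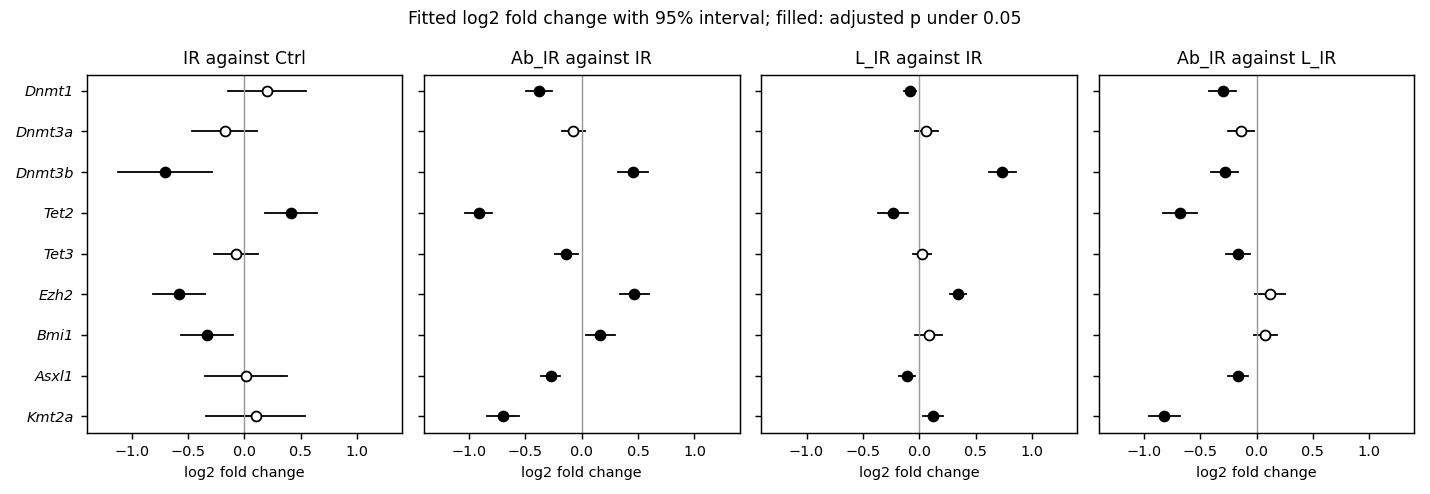
Fitted log2 fold change of FPKM + 1 (horizontal axes) with its 95% interval for the 9 genes tested in 4 comparisons, filled where the adjusted p was under 0.05. In IR against Ctrl the filled points are Dnmt3b, Tet2, Ezh2 and Bmi1, and in Ab_IR against L_IR all 6 filled points lie below 0, with Kmt2a at -0.82 and Tet2 at -0.68.

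The comparison of IR with Ctrl asks which regulators differ 3 days after irradiation. Tet2 was higher and Dnmt3b, Ezh2 and Bmi1 were lower in IR, while Dnmt1, Dnmt3a, Tet3, Asxl1 and Kmt2a did not pass. Thus 1 of 9 tested members was higher and 3 of 9 were lower, against 17.5% higher and 25.5% lower among all 12072 genes tested. None also exceeded an absolute log2 fold change of 1, the fold that the study's methods ask for, which 7.6% of all genes did. The median of the 9 members was -0.07, that of all genes -0.05. Without IR replicate 1, 2 or 3 the number of members past the test was 1, 1 and 2, and without Ctrl replicate 1 it was 5. The number of all genes past the test went from 5199 to between 3358 and 3368 without 1 IR library. When the Nppa split was a term, 4 members were higher (Dnmt1, Tet2, Asxl1 and Kmt2a) and 3 lower, where 25.9% of all genes were higher and 37.5% lower. Of the 6 HSC markers tested, 4 were lower in IR and 1 higher, with a median of -1.60 and sums of 92.7 to 101 FPKM in Ctrl and 70.2 to 77.4 in IR. The 10 erythroid markers were all lower in IR, with a summed level of 484 to 497 FPKM against 3107 to 3582 in Ctrl, and the 8 mast cell, basophil and eosinophil markers also all fell, from 3852 to 5059 FPKM in Ctrl to 504 to 509 in IR. Of the plasma cell markers 9 of 10 were higher, with sums of 10169 to 13380 FPKM in Ctrl and 17760 to 19006 in IR. None of these lists had a marker at 0 in all libraries, and their part in the members' differences was not tested.

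Ab_IR and L_IR were each compared with IR to ask which members differ between irradiated groups. Dnmt3b and Ezh2 were higher than in IR in both groups, and Dnmt1, Tet2 and Asxl1 were lower in both. In Ab_IR 3 of 9 members were higher and 5 of 9 lower, against 39.4% and 29.4% of all genes, and 7.57% of all genes but no member exceeded the added fold. With a pseudocount of 0.1 FPKM in place of 1, Tet2 reached -1.22 in this comparison. In L_IR 3 of 9 were higher and 3 of 9 lower, against 40.8% and 26% of all genes, with 6.22% of all genes past the added fold and again no member. The medians of the members were -0.14 in Ab_IR and 0.06 in L_IR, those of all genes 0.06 and 0.07. When the Nppa split was a term, no member was higher in either group, and 6 were lower in Ab_IR and 5 in L_IR. In that fit 35.6% of all genes were higher and 26.9% lower in Ab_IR, and 34.1% and 22.2% in L_IR. In a single fit of all 12 libraries the calls of Tet3, Bmi1 and Asxl1 in Ab_IR (adjusted p = 0.0821, 0.0859 and 0.0696) and of Dnmt1, Asxl1 and Kmt2a in L_IR (adjusted p = 0.607, 0.484 and 0.530) were lost. Both comparisons use the same IR libraries. With immunoglobulin genes left out, the share of higher genes among all genes past the test went from 57.3% to 41.4% in Ab_IR against IR, and with quantile normalization from 61.0% to 48.5% in L_IR against IR. All 10 erythroid markers were higher than in IR in both groups, with sums of 2955 to 3175 FPKM in Ab_IR and 1491 to 1550 in L_IR, and so were the 8 megakaryocyte markers tested, 3 of which (Gp1ba, Vwf and Treml1) were under a mean of 1 FPKM in IR and could pass the filter only through the group where they were high, with sums of 15.9 to 18.3 FPKM in IR, 157 to 161 in Ab_IR and 98.2 to 104 in L_IR. Of the 6 HSC markers tested, 4 were higher and 2 lower than in IR in each group, with medians of 1.30 in Ab_IR and 1.12 in L_IR and sums of 84.7 to 92.5 and 91.6 to 92.8 FPKM. Their part in the members' differences was not tested.

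Compared directly, Ab_IR was below L_IR in 6 of 9 members, namely Kmt2a, Tet2, Dnmt1, Dnmt3b, Asxl1 and Tet3, and above it in none that passed. Among all 12194 genes tested, 19.8% were lower and 18.2% higher, and 0.533% passed the added fold, none of them a member. The members' median was -0.17 and that of all genes 0.01. Leaving out immunoglobulin genes, which made up 13.5% to 14.3% of FPKM in Ab_IR and 21.9% to 22.6% in L_IR, moved the median of all genes to -0.11, and the share of higher genes among those past the test from 47.9% to 16.2%. In that fit 34% of all genes were lower and 6.57% higher, and 7 of 9 members were lower, the same 6 and Dnmt3a at -0.25 (adjusted p = 0.00797), while a difference from the shift of all genes was not tested. In a single fit of all 12 libraries only Kmt2a and Tet2 passed, and the calls of Dnmt1, Dnmt3b, Tet3 and Asxl1 were lost (adjusted p = 0.0966, 0.169, 0.0876 and 0.365). All 10 plasma cell markers were lower in Ab_IR, with sums of 18053 to 18695 FPKM against 25859 to 26735 in L_IR, and all 10 erythroid markers were higher. Their part in the result was not tested.

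Against Ctrl, limma passed 0 of 9 members in Ab_IR and 0 of 9 in L_IR. At an unadjusted p under 0.05 there were 3 in Ab_IR (Tet2, Tet3 and Kmt2a, all lower) and 2 in L_IR (Ezh2 and Bmi1, both lower), where 11.4% and 12.7% of all genes were lower at that p. At an adjusted p under 0.05 calls were also rare among all genes, at 1.45% higher and 0.651% lower in Ab_IR and 4.76% and 4.08% in L_IR, with 0.923% and 2.65% past the added fold. The 255 genes past the test in Ab_IR became 677 without Ctrl replicate 1, 105 without Ctrl replicate 3 and 59 to 65 without any one Ab_IR library. The 1083 in L_IR became 2458 without Ctrl replicate 1, 701 without Ctrl replicate 2 and 396 to 414 without any one L_IR library. With the Nppa split as a term, both contrasts rest on Ctrl replicate 1 alone, the only Ctrl library without Nppa. Calls from that fit are therefore not counted here, and Kmt2a in Ab_IR was at -0.98 in it. With all Ctrl libraries Kmt2a in Ab_IR was at -0.60 with a 95% interval of -1.04 to -0.16 (adjusted p = 0.164). Dnmt3b in L_IR was at 0.03 with an interval of -0.37 to 0.44. Without Ctrl replicate 1, Dnmt3b at 0.23 (adjusted p = 0.0361) and Kmt2a at 0.41 (adjusted p = 0.0371) passed as higher in L_IR.

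Gene length moved with the differences of Ab_IR. Merged exons spanned 16870 bases in Tet2, 16670 in Kmt2a, 16695 in Tet3 and 16642 in Dnmt3a, but 3974 in Bmi1, 5106 in Dnmt3b and 6678 in Ezh2, the members higher in Ab_IR than in IR. Dnmt1 at 7377 and Asxl1 at 7444 bases were near Ezh2 in length but lower in Ab_IR, while the median of all genes of 6000 to 8000 bases was -0.01. Across all genes the median log2 fold change of Ab_IR against IR was 0.16 for genes of up to 1000 bases and 0.18 for those up to 2000 bases, and fell from there to -0.21 above 12000 bases (509 genes). In Ab_IR against L_IR it was 0.02 and 0.14 in the same bins of short genes and -0.22 above 12000 bases (510 genes). In L_IR against IR the median was 0.18 up to 1000 bases, 0.07 up to 2000 bases and 0.03 above 12000 bases. With this trend taken out per library, an alternative chosen after seeing the data, Tet2 was at -0.62 (adjusted p = 2.98e-05) and Kmt2a at -0.40 (adjusted p = 0.000658) in Ab_IR against IR, and at -0.44 and -0.58 in Ab_IR against L_IR, past the test in both. Dnmt3a turned to 0.22 in Ab_IR against IR (adjusted p = 0.0027) and Tet3 to 0.16, and Dnmt1 and Asxl1 kept their direction at -0.29 and -0.18. The call of Bmi1 as higher in Ab_IR than in IR was then lost. Members past the test then numbered 4 higher and 4 lower in Ab_IR against IR, 5 higher and 3 lower in L_IR against IR, and 1 higher and 4 lower in Ab_IR against L_IR, where among all genes 39.5% and 28.3%, 41.3% and 25.4%, and 15.3% and 16.2% were higher and lower. In the last, Ezh2 passed as higher at 0.18 (adjusted p = 0.0444), while Tet3 at 0.08 (adjusted p = 0.218) and Asxl1 at -0.09 (adjusted p = 0.125) no longer passed. What the trend comes from was not tested.

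**Figure D3:**
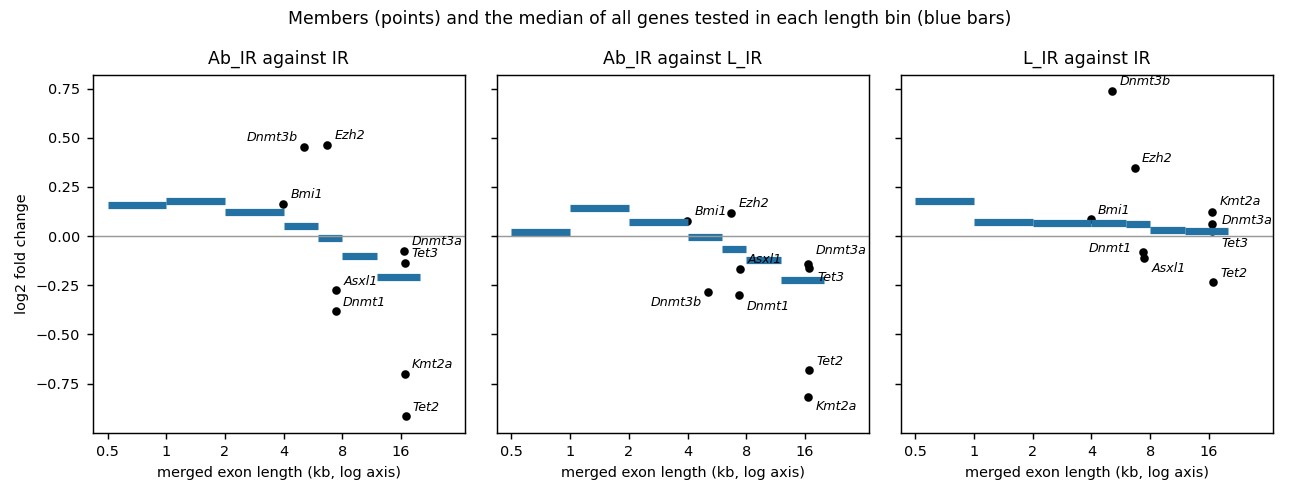
Log2 fold change (vertical axes) against merged exon length in kb (horizontal log axes) for the 9 genes tested (points) and the median of all genes tested in 7 length bins (blue bars, the first drawn from 0.5 kb and the last to 20 kb). In both panels of Ab_IR the bars rise from the first bin to the second and fall from there on, and Tet2 and Kmt2a lie below the bar of their length in these panels.

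Ratios of related genes within a library do not depend on the scaling of libraries. The log2 ratio of Tet2 to Tet3 was -1.06, -1.20 and -1.16 for Ctrl, -0.53, -0.54 and -0.55 for IR, -1.63, -1.62 and -1.54 for Ab_IR and -0.88, -0.94 and -0.75 for L_IR, so that no groups overlapped in any of the 6 comparisons. The ratio of Dnmt1, the maintenance enzyme, to Dnmt3a averaged 4.11 ± 0.11 for Ctrl, 4.52 ± 0.023 for IR, 4.23 ± 0.073 for Ab_IR and 4.36 ± 0.036 for L_IR (SD, n = 3), highest in IR with no overlap. The ratio of Ezh2 to Ezh1, its paralog that prevails in resting cells, was 2.69 ± 0.093 in Ctrl and 2.73 ± 0.046 in Ab_IR, and lower at 2.40 ± 0.13 in IR and 2.43 ± 0.038 in L_IR. In the two-sided exact permutation test 15 of 18 ratio comparisons reached p = 0.1, the smallest that 3 against 3 libraries allow, and adjusted over the 18 this is 0.12, so no ratio could pass. Ezh2 to Ezh1 did not separate L_IR from IR (exact p = 0.9, difference 0.03) or Ab_IR from Ctrl (exact p = 0.5, difference 0.04).

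**Figure D4:**
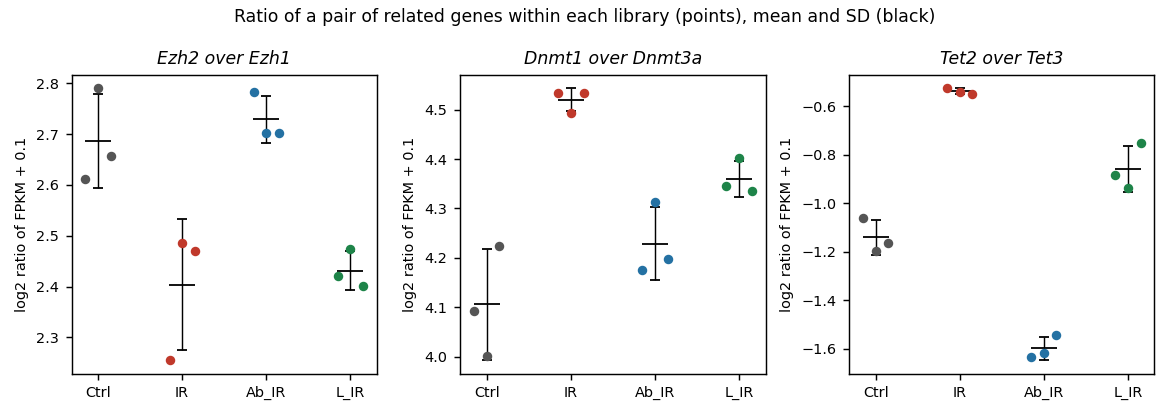
Log2 ratio of FPKM + 0.1 (vertical axes) of Ezh2 to Ezh1, Dnmt1 to Dnmt3a and Tet2 to Tet3 in each library (points), with mean and SD in black. The Tet2 to Tet3 ratio is highest in IR, at -0.53 to -0.55, and lowest in Ab_IR, at -1.54 to -1.63.

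Partners of the DNA methylation enzymes were followed as 24 genes, 22 of them tested in IR against Ctrl. Of these 5 were higher and 2 lower in IR, where 17.5% and 25.5% of all genes stood, and the medians of the list and of all genes were -0.04 and -0.05. Largest among the higher were Gadd45b, at 24.7 ± 0.24 FPKM in IR and 12.1 ± 1.3 in Ctrl, and Gadd45g, at 13.6 ± 1.1 and 7.43 ± 0.30 (SD, n = 3), both stress-induced genes linked to active demethylation. Both were lower in Ab_IR than in IR, with log2 fold changes of -0.77 and -0.63, where 3 of 22 partners were higher and 7 lower, against 39.4% and 29.4% of all genes. With immunoglobulin genes left out, 2 were higher and 12 lower, against 28.0% and 39.6% of all genes. In L_IR against IR 5 were higher and 8 lower, against 40.8% and 26% of all genes, and Gadd45a, a p53 target, fell by 0.75 to 30.8 ± 1.3 FPKM. Dnmt3l was under a mean of 1 FPKM in Ctrl, Ab_IR and L_IR, so the filter admitted it to these 3 comparisons only through IR. Without it 4 of 21 partners were higher and 2 lower in IR against Ctrl. In Ab_IR against IR 3 of 21 were then higher and 6 lower, and in L_IR against IR 5 and 7. Uhrf1, which brings DNMT1 to newly replicated DNA, was at 76.6 to 92 FPKM over the 12 libraries.

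Partners of BMI1 and EZH2 were followed as lists of PRC1 and PRC2 genes. Of 19 PRC1 partners tested, 8 were lower and 1 higher in IR than in Ctrl, against 25.5% and 17.5% of all genes, and their median was -0.27 against -0.05 for all genes. Pcgf2, the paralog of Bmi1, fell from 2.59 ± 0.54 FPKM in Ctrl to 0.837 ± 0.083 in IR, so that it passed the filter only through Ctrl, and Rnf2, the ubiquitin ligase of PRC1, from 16.6 ± 2.8 to 9.31 ± 0.34. In Ab_IR against IR 11 of 19 were higher and 5 lower (39.4% and 29.4% of all genes), among them Pcgf2 at 0.76 and the chromodomain gene Cbx6 at 0.77, and in L_IR against IR 9 were higher and 4 lower (40.8% and 26% of all genes). Without the partners under a mean of 1 FPKM in a group, which the filter admits only through the group where they are high, 6 of 17 were lower and 1 higher in IR against Ctrl (Pcgf2 and Phc1 set aside), and 8 of 16 higher and 5 lower in Ab_IR against IR (these and Cbx2 set aside). In L_IR against IR 7 of 17 were then higher and 4 lower (Pcgf2 and Phc1 set aside). With immunoglobulin genes left out, 8 were higher and 7 lower in Ab_IR against IR (28.0% and 39.6% of all genes). Of the 10 PRC2 partners 2 were lower in IR than in Ctrl, namely Phf1 at -0.64 and the histone chaperone Rbbp4 at -0.21, and the other 8, including the core subunits Suz12 and Eed, did not pass. The Rbbp4 call was lost with immunoglobulin genes left out, at -0.13 (adjusted p = 0.244), with the replicate block (adjusted p = 0.0966), with the length trend taken out (adjusted p = 0.0823), without Ctrl replicate 2 (adjusted p = 0.0633) and without any one IR library (adjusted p = 0.118 to 0.131). In each of Ab_IR and L_IR against IR, 3 were higher and 3 lower, shares near those of all genes given above.

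Partners of KMT2A were followed as 20 genes of the KMT2 and SET1 complexes. Of these 12 were lower and 3 higher in Ab_IR than in IR (median -0.19 against 0.06 for all genes), where 29.4% of all genes were lower and 39.4% higher. Against L_IR 11 were lower and 1 higher, where 19.8% of all genes were lower and 18.2% higher. Kmt2d, another H3K4 methyltransferase, was at 12.2 ± 0.57 FPKM in IR, 6.27 ± 0.69 in Ab_IR and 11.2 ± 0.41 in L_IR. Mllt3, a fusion partner of KMT2A in leukemia, moved the other way, from 1.04 ± 0.058 FPKM in IR to 2.45 ± 0.12 in Ab_IR. In L_IR against IR 7 of 20 were higher and 7 lower (40.8% and 26% of all genes), which became 2 higher and 5 lower with the Nppa split as a term (34.1% and 22.2% of all genes). With the length trend taken out, 10 KMT2 and SET1 partners were lower and 3 higher in Ab_IR than in IR (28.3% and 39.5% of all genes), and 12 lower and 2 higher than in L_IR (16.2% and 15.3% of all genes). Of 7 tested partners of ASXL1, 4 were lower in Ab_IR than in IR and 6 than in L_IR, led by Hcfc1 at 34.6 ± 2.1 FPKM in Ab_IR, 51.7 ± 1.9 in IR and 50.2 ± 1.7 in L_IR. Of 7 demethylases of H3K27 and H3K4, 4 were lower in Ab_IR than in L_IR, including Kdm5c at -0.27 and Kdm5a at -0.33, against 2 with the length trend taken out and 7 with immunoglobulin genes left out (16.2% and 34% of all genes). In Ab_IR against IR 2 of them were lower and 2 higher (29.4% and 39.4% of all genes), which became 4 lower and 0 higher with immunoglobulin genes left out (39.6% and 28.0% of all genes). In L_IR against IR 1 was lower and 4 were higher (26% and 40.8% of all genes), which became 2 lower and 0 higher with the Nppa split as a term (22.2% and 34.1% of all genes).

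Of the 20 known targets of these regulators in blood cells, none was at 0 in all libraries and 12 were under 1 FPKM in all, among them Cdkn2a, the classic target of BMI1 repression, at 0 to 0.16 FPKM. The filter admitted some of the others only through the group where they were high, which fixes their direction. Of the 5 tested in IR against Ctrl, 4 were lower, including Meis1, one so admitted, from 1.67 ± 0.13 FPKM to 0.373 ± 0.078, and Hoxa7, from 2.10 ± 0.36 to 1.07 ± 0.061, both kept active by KMT2A in stem cells. In Ab_IR against IR 5 of 6 were higher (39.4% of all genes), among them Hoxa7 at 0.76 and the cyclin kinase inhibitor Cdkn2c at 0.95, and in L_IR against IR 4 of 5 were higher (40.8% of all genes), Meis1 at 0.60, and 2 of 5 with quantile normalization. With at least 1 FPKM on average in both groups there were 3 of 4 lower in IR against Ctrl, and 3 of 3 higher in Ab_IR and in L_IR against IR. Since Dnmt1 and Ezh2 are known to be expressed with DNA replication, 24 S phase genes were set beside them. In IR against Ctrl 14 were lower (25.5% of all genes), such as Pcna at -0.61, and 1 was higher (17.5% of all genes), Rrm2 at 0.63. With immunoglobulin genes left out, 9 were lower (18.9% of all genes). In Ab_IR 17 were higher and 2 lower than in IR, against 39.4% and 29.4% of all genes, and in L_IR 17 and 3, against 40.8% and 26%. With the Nppa split as a term 11 were higher and 2 lower in Ab_IR, against 35.6% and 26.9% of all genes. In L_IR 6 were then higher and 4 lower, against 34.1% and 22.2%. Their summed level ran from 1480 to 1612 FPKM for Ctrl, 1340 to 1349 for IR, 1481 to 1577 for Ab_IR and 1393 to 1436 for L_IR, and its part in the members' differences was not tested.

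**Figure D5:**
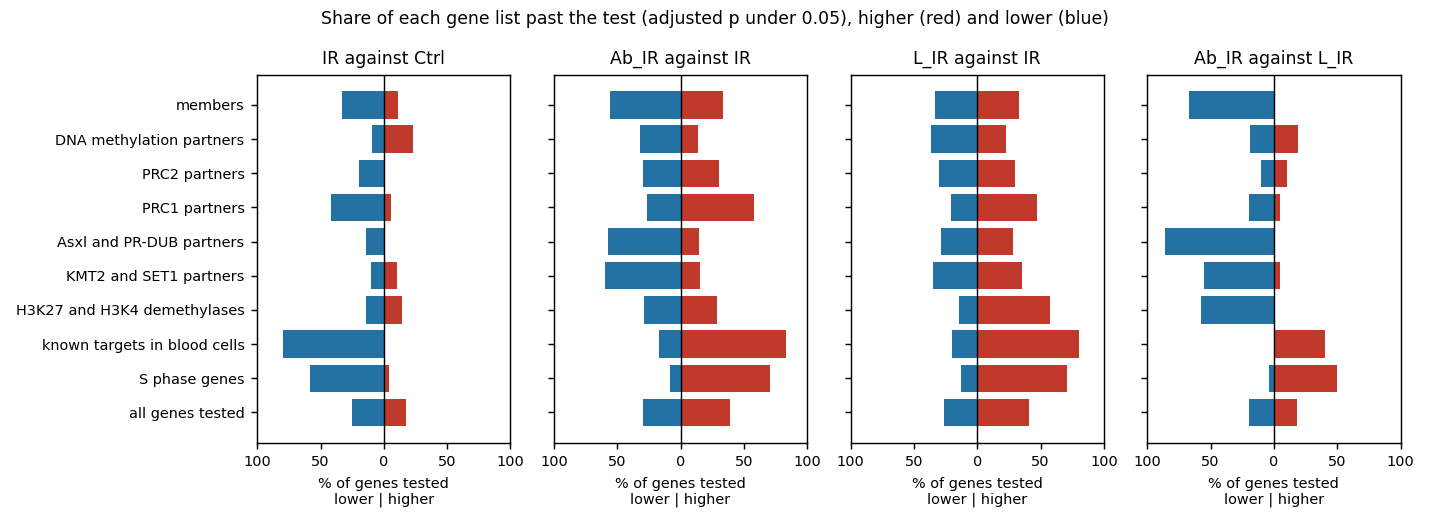
Percentage of the tested genes of each list that were higher (red, to the right) or lower (blue, to the left) at an adjusted p under 0.05 in 4 comparisons, with all genes tested in the lowest row. In Ab_IR against L_IR the lists of ASXL1 partners (6 of 7) and KMT2 and SET1 partners (11 of 20) lie mostly on the lower side, where 19.8% of all genes stand.

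The genes whose level over the 12 libraries was most like that of each member were sought among 12699 genes, by the mean absolute difference of gene-centred log2 values. They were Smarca4 for Dnmt1 (0.030), Phlpp2 for Dnmt3b (0.058), Tex2 for Dnmt3a (0.024), Ncor1 for Tet2 (0.054), Epb41 for Tet3 (0.028), Phf14 for Ezh2 (0.035), Rbbp8 for Bmi1 (0.043), Rbm10 for Asxl1 (0.030) and Ankhd1 for Kmt2a (0.034). Among the members themselves Tet2 and Kmt2a were nearest to each other (0.14), as were Dnmt3a and Tet3 (0.053), where a gene with no change would lie at 0.29 from Tet2, 0.31 from Kmt2a, 0.090 from Dnmt3a and 0.075 from Tet3. Ezh2 and Bmi1 were also nearest to each other (0.123), but a gene with no change would lie nearer to Bmi1, at 0.108. The 12 libraries share group and scaling, so these likenesses are a description.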

How the data were processed

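Per the labels, RNA of sorted HSCs was extracted with a micro-scale kit and made into stranded mRNA libraries. The submitters' processing notes name fastp, HISAT2, StringTie and the build GRCm38 (mm10), whereas the study's methods name RSEM for quantification and DESeq2 for testing. The deposited files hold FPKM as computed by the authors, with 1 file per library and no read counts, so the depth is unknown, no counting interval can be given and the count test of the study was not used.

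From these values log2(FPKM + 1) was computed and, for each of 6 comparisons, the 6 libraries were fitted in limma (version 3.58.1, R 4.3.3) using lmFit and then eBayes with its trend option. A gene entered where 3 or more of those libraries held 1 FPKM or more. P-values were adjusted over all genes tested by Benjamini-Hochberg, and a gene passed at an adjusted p under 0.05. SE, adjusted p and 95% intervals are from this fit unless a sentence names another setting. The script was tested on simulated data. Ratios were tested with scipy 1.17.1. Exon lengths and positions are from GENCODE M21 (GRCm38). Python 3.11.15 and matplotlib 3.10.9 were used for figures.

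All 10 members are named. Of each partner, target and S phase list, up to 2 genes per comparison with the largest change are eligible among those past the test without overlap of the groups and with a mean of 1 FPKM or more, and of the marker lists the gene with the highest mean. Ctnnal1, Slamf1, Tek, Mecom, Fgd5, Hoxb5, Cd34, Flt3, Nppa, Uhrf1, Suz12, Eed, Ezh1, Cdkn2a and the genes named for being under 1 FPKM in a group were named outside this rule. The members and lists (also of megakaryocyte, B cell, T cell, macrophage, neutrophil and monocyte, and stroma markers) were chosen with earlier results of these data known. Alternatives were another pseudocount, no filter, quantile normalization, a mean of 10 FPKM or more, immunoglobulin genes left out, median log2 ratio scaling, no trend, all 12 libraries in one fit without and with the Nppa split (10 FPKM) as a term, the replicate block, each library left out, and the trend against length taken out by lowess.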

Additional observations from a re-analysis of the deposited data

How the results depend on the processing

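Of 888 recomputed differences of members, 762 kept their direction and their side of the threshold, 61 no longer passed, 35 passed newly and 30 changed sign, 22 of them past the test in neither fit. The number of members past the test was 4, 8, 6, 6, 0 and 0 for 6 comparisons, in this order: IR with Ctrl, Ab_IR with IR, L_IR with IR, Ab_IR with L_IR, Ab_IR with Ctrl, L_IR with Ctrl. With a mean of at least 10 FPKM, 26% of all genes were higher and 19.3% lower, 35.9% and 36.8%, 33.5% and 38.2%, and 29.3% and 19.4% in the first 4. The number of members past the test was then 2, 4, 3 and 2, with 4 members left to test. With all 12 libraries in one fit it was 5 in Ab_IR against IR, 3 in L_IR against IR, 2 in Ab_IR against L_IR, 3 in Ab_IR against Ctrl, and 1 when L_IR was set against Ctrl, where 31.1% of all genes were higher and 23.1% lower, 29.3% and 17.4%, 8.02% and 11.2%, 8.1% and 10.2%, and 10.4% and 10.9%, in the same order. With the Nppa split as a term it was 7 in IR against Ctrl, where 25.9% of all genes were higher and 37.5% lower. For Ab_IR and L_IR against Ctrl that fit rests on Ctrl replicate 1 alone, so its calls are not counted. Over fits without 1 library the number of members past the test ranged from 1 to 5 in IR against Ctrl, 6 to 8 in Ab_IR against IR, 4 to 6 in L_IR against IR, 4 to 6 in Ab_IR against L_IR, 0 to 1 in Ab_IR against Ctrl, and 0 to 2 when L_IR was set against Ctrl. All genes past the test in these fits numbered 3358 to 6773, 7381 to 7547, 7063 to 7419, 3209 to 4151, 59 to 677 and 396 to 2458, in the same order. The sign changed under the Nppa split for Dnmt3b in Ab_IR against IR (-0.14), for Dnmt3b (-0.36), Dnmt1 (-0.16) and Kmt2a (-0.16) in L_IR against Ctrl, and for Dnmt3a (-0.31), Kmt2a (-0.45), Tet3 (-0.098) and the partners Ezh1 (-0.059) and Psip1 (-0.12) in L_IR against IR. It changed with the length trend taken out for Dnmt3a (0.22) and Tet3 (0.16) in Ab_IR against IR, Tet3 (0.078) and Dnmt3a (0.10) in Ab_IR against L_IR, and Tet3 in Ab_IR against Ctrl (0.040). Quantile normalization changed it for Tet3 (-0.091) and Dnmt3a (-0.097) in L_IR against IR, and for Tet3 (0.037) and Asxl1 (-0.0084) in IR against Ctrl, where median ratio scaling gave Asxl1 at -0.033. With immunoglobulin genes left out it changed for Ezh2 (-0.021) and Bmi1 (-0.058) in Ab_IR against L_IR and for Tet3 in IR against Ctrl (0.00030) and L_IR against Ctrl (0.021). Over fits without 1 library the sign changed for Asxl1 (-0.12 to 0.18) and Kmt2a (-0.082 to 0.29) in IR against Ctrl, and for Dnmt1 (-0.032 to 0.26), Dnmt3a (-0.20 to 0.014), Dnmt3b (-0.066 to 0.23) and Asxl1 (-0.23 to 0.072) in L_IR against Ctrl. With a pseudocount of 1 the log2 ratio of Tet2 to Tet3 differed by 0.49 in IR against Ctrl, -0.78 in Ab_IR against IR, -0.52 in Ab_IR against L_IR and -0.29 in Ab_IR against Ctrl, where a larger pseudocount draws low values together. The cause of the other changes was not tested. The number of all genes past the test under the Nppa split is not given for Ab_IR and L_IR against Ctrl, where that fit rests on Ctrl replicate 1.

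Replicate numbers are shared between groups, but nothing in the labels says that they pair the samples, and deviations of same-numbered libraries correlated at -0.27 to 0.21, with no comparison above 0.1 in all 3 pairs. With the replicate block the number of members past the test was 3, 7, 5, 4, 0 and 0, in the order given above, where 14.6% of all genes were higher and 20.9% lower, 38.8% and 28.5%, 39.1% and 24.9%, 13.3% and 15.1%, 0.775% and 0.19%, and 2.73% and 1.56%. The calls that did not pass were Bmi1 in IR against Ctrl, Tet3 in Ab_IR against IR, Kmt2a in L_IR against IR, and Tet3 and Asxl1 in Ab_IR against L_IR.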

Other observations

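Markers of other blood and marrow cells moved between the same groups. The 7 T cell markers were higher in L_IR than in IR, 3 of them (Cd3e, Cd4 and Cd8a) under a mean of 1 FPKM in IR and so tested only through L_IR, with sums of 33.7 to 35.2 FPKM in L_IR, 11.2 to 12.7 in IR, 21.7 to 24.3 in Ab_IR and 19.2 to 21.4 in Ctrl. The B cell markers summed to 24.4 to 25.0 FPKM in IR and to 43.4 to 47.1 in Ab_IR and L_IR, and of these markers 2 of 9 were at a mean of 1 FPKM or more in both groups of a comparison with IR, both higher in Ab_IR and in L_IR. Of the 12 neutrophil and monocyte markers 9 were lower and 2 higher in L_IR than in IR, with sums of 8840 to 9060 FPKM in L_IR and 16153 to 16422 in IR. Of 6 macrophage markers tested, 4 were higher than in IR in Ab_IR and 5 in L_IR, with sums of 37.7 to 42.9 FPKM in IR and 58.5 to 74.0 in both other irradiated groups. The stroma and bone markers, led by Col1a1, summed to 163 to 204 FPKM in Ctrl, 10.4 to 11.2 in IR, 51.2 to 57.2 in Ab_IR and 49.8 to 51.9 in L_IR, and of the 5 tested, all lower in IR than in Ctrl, Col1a2, Bglap and Cxcl12 were under a mean of 1 FPKM in IR and so tested only through Ctrl. No marker of these lists was at 0 in all libraries.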
